A study of Mus musculus with 6 samples.

Results

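The 8 genes described here are rows of the deposited count table: Ppargc1a, Ppargc1b, Esrra, Esrrb, Esrrg, Nrf1, Tfam and Ppara, the regulators of mitochondrial biogenesis grouped around PGC-1alpha. They were taken by symbol from 23306 rows, and all 8 were found. The knockout mice carried a conditional knockout of Fxr1, made with the same parvalbumin Cre driver (PV-Cre) that switches on the ribosome tag, and they were set against wild type mice. The protein made from Fxr1 binds RNA and is a relative of the fragile X protein FMRP. Both genotypes were male C57BL6 mice described under the PV-Cre::RiboTag cross with Tg(Palvalbumin-cre) and RPL22HA/WT; their age, the state of the Fxr1 alleles beyond the wild type label, and whether a library came from 1 animal or a pool are not stated. Haemagglutinin-tagged Rpl22 was immunoprecipitated from frontal cortex, which aims at RNA on ribosomes of Cre-expressing, fast-spiking inhibitory interneurons. How much of the RNA came from other cells was not measured. Of 6 libraries, 3 per genotype, 4 could be matched to a column by title: knockout replicates 1 and 3 and wild type replicates 2 and 3, with 9696126 to 10301280 counts each. Nothing says that these libraries came from separate animals, so p-values measure only the spread between them, which may be technical.

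PGC-1alpha, the product of Ppargc1a, is a coactivator: it binds no DNA itself but docks on transcription factors and raises the output of their target genes, many of which build mitochondria. The estrogen-related receptors ERRalpha, ERRbeta and ERRgamma (Esrra, Esrrb, Esrrg) and nuclear respiratory factor 1 (Nrf1) are such partners, and TFAM, encoded in the nucleus, packages and helps transcribe mitochondrial DNA. In the cortex PGC-1alpha is concentrated in interneurons, above all those with parvalbumin, whose fast firing has a high energy cost.

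Fxr1 was low in the libraries labelled knockout, and markers of parvalbumin neurons were detected in all 4 libraries. Fxr1 (mm10 chromosome 3, 34019943 to 34070322), the deleted gene, measured 17.8 and 18.7 CPM, with each library's counts put on the same total, in knockout libraries, against 98.4 and 100.6 CPM in wild type libraries. The 2 groups stood far apart, with an edgeR adjusted p of 1.77e-15 for a log2 fold change of −2.45 (SE 0.10). Summed over 12 genes listed as parvalbumin neuron markers, such as Gad1 and Kcnc1, the level was 12917 and 12746 CPM in knockout, against 13045 and 13121 CPM in wild type. Gad1, a gene of inhibitory neurons in general, made up 4048 to 4354 CPM of this sum, and Pvalb 241 to 264 CPM. None of those 12 markers was at 0 in any library. The summed oligodendrocyte markers, 10 of 10 detected, stood at 288 and 409 CPM in knockout, against 314 and 284 CPM in wild type, highest in knockout replicate 3. The astrocyte markers, 8 of 8 detected, summed to 616 and 719 CPM in knockout and to 670 and 638 CPM in wild type. The excitatory neuron markers, 8 of 8 detected, summed to 901 and 951 CPM in knockout and to 942 and 860 CPM in wild type. Knockout replicate 1 held 7110 CPM of the ribosomal RNA precursor Rn45s, against 2827 to 3152 CPM in the other libraries. Of 8 markers of striatal projection neurons, 8 detected, 6 were higher in both knockout libraries than in both wild type libraries, against 14.8% of all tested genes. Of these markers 4 had an unadjusted p under 0.05 by edgeR, against 3.23% of all tested genes. After adjustment 0 of them passed, against 0.0321% of all tested genes. The largest log2 fold changes among them were 0.96 (SE 0.42) for Adora2a and 0.96 (SE 0.46) for Drd2, at 0.928 to 2.43 CPM. The 2 markers below 0 were Drd1a (−0.25, SE 0.16), at 17.9 to 28.8 CPM, and Pde10a (−0.08, SE 0.08). Pde10a was the most abundant of the 8, at 111 to 130 CPM. The summed level of the 8 markers was 199.95 and 224 CPM in knockout, against 213 and 209 CPM in wild type, so that the sums overlapped. Their part in the results below was not tested. Over all genes the libraries did not group by genotype. The closest pair was knockout replicate 3 and wild type replicate 3 (chi-square per degree of freedom 3.02). The furthest was the 2 knockout libraries (6.35), the 2 wild type libraries stood at 3.68, and knockout replicate 1 was nearest to wild type replicate 2. Rn45s was kept in this measure. By correlation of log2 CPM the furthest pair was instead knockout replicate 1 and wild type replicate 3 (0.9907), with the 2 knockout libraries at 0.9912. Since only pulled-down RNA was analysed, enrichment of these transcripts over whole tissue could not be measured. In such bulk RNA, fewer cells of a type and less RNA per cell cannot be told apart.

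The 8 regulators covered a wide range of levels, which were compared per kilobase of exon. Ppargc1a was the most abundant, at 65.7 ± 6.40 CPM per kilobase (SD, n = 4 libraries), above 96.2% of the 12311 tested genes with an annotated length. Esrrg followed at 42.6 ± 2.84 CPM per kilobase, above 93.1% of those genes, and Ppargc1b at 18.2 ± 1.27 CPM per kilobase, above 81.9%. The lowest library of each of these stood above the highest library of the next gene in the order. This held for Ppargc1a and Esrrg also with the longest annotated transcript as the length, but not for Ppargc1b. Esrra (10.1 ± 1.11 CPM per kilobase) and Tfam (9.98 ± 0.823 CPM per kilobase) came next and did not differ beyond their spread, and without knockout replicate 1 their order was turned round. The length used decides this: per kilobase of the longest transcript Esrra stood at 17.9 ± 1.95 CPM and Tfam at 10.6 ± 0.876 CPM, with no overlap between libraries. On that scale Esrra overlapped Ppargc1b, at 19.8 ± 1.39 CPM.

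Esrrb had 4.10 ± 0.320 CPM per kilobase, near the median of 5.14 CPM per kilobase over tested genes. Nrf1, here the gene of nuclear respiratory factor 1 and not Nfe2l1, had 1.48 ± 0.135 CPM per kilobase, above 22.7% of tested genes. Its annotated exons add up to 10282 bases, and with the longest transcript of 4042 bases in their place its level was 3.76 CPM per kilobase. Ppara, the receptor that drives fatty acid oxidation genes in liver, was lowest, at 0.244 ± 0.0449 CPM per kilobase. It had 8 and 12 counts in knockout libraries, against 8 and 10 in wild type libraries, and a count of 8 carries an exact Poisson interval of 3.45 to 15.8 at the 95% level, which covers counting error only.

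**Figure D1:**
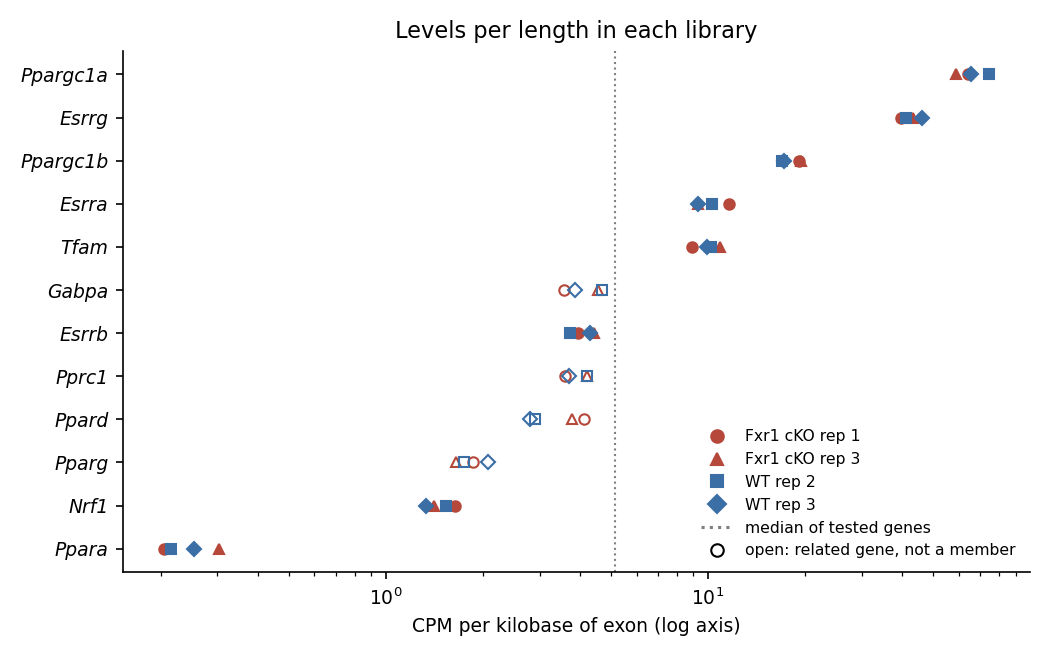
Level of each regulator (filled) and of 4 related genes (open) in each of the 4 libraries, in CPM per kilobase of union exon length on a log axis, with the median of tested genes as a dotted line. Ppargc1a, Esrrg, Ppargc1b, Esrra and Tfam lie right of the dotted line, and Esrrb, Nrf1 and Ppara left of it.

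Within families the levels were uneven. Of the summed ERR transcripts per kilobase, Esrrg made up 71.8% and 75.9% in knockout libraries, against 74.5% and 77.3% in wild type libraries. Esrrb made up 7.12% and 7.81% in knockout libraries, against 6.77% and 7.16% in wild type libraries. ERRgamma transcripts thus outnumbered those of both other receptors in each library, while Esrra held the rest. With longest transcripts as lengths, Esrrg made up 63.8% and 68.8% in knockout libraries, against 67.0% and 70.4% in wild type libraries. Among the PGC-1 coactivators, Pprc1, which encodes the PGC-1-related coactivator PRC, had 3.93 ± 0.334 CPM per kilobase and stood below Ppargc1a and Ppargc1b in all 4 libraries. Among the PPAR receptors, Ppard had 3.40 ± 0.654 and Pparg 1.83 ± 0.183 CPM per kilobase, both above Ppara in all 4 libraries (SD, n = 4 each).

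The genes lie on 8 different mouse chromosomes. In GENCODE M21 (mm10), Ppargc1a spans 51454250 to 51567726 on chromosome 5, minus strand, whereas the RefSeq record of GRCm38.p6 runs to 52115853, or 548 kb further upstream. Which of its start sites the counts came from cannot be read from one value per gene. Esrra, on chromosome 19 at 6910977 to 6921813, was the only one of the 8 whose exons overlapped those of other annotated genes, Trmt112 on the opposite strand and Mir6990 on the same strand. Since the strand setting of the counting is not given in the sources used here, reads of Esrra and Trmt112 may have been shared or dropped. On the plus strand, Esrrg lies on chromosome 1 at 187608791 to 188214885, Nrf1 on chromosome 6 at 30047988 to 30153458, Esrrb on chromosome 12 at 86361117 to 86521628 and Ppara on chromosome 15 at 85734983 to 85802819. On the minus strand, Tfam lies on chromosome 10 at 71225464 to 71238280.

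RefSeq promoter windows (GRCm38.p6, 250 bases before to 50 bases after an annotated start) were found for 7 of the 8 genes, 12 windows in all, and Ppargc1b was not matched. They were searched on both strands for the NRF1 core GCATGCGC, the ERR element AAGGTCA and the cAMP response element core TGACGT. The NRF1 core was in 2 windows, those of Esrra and Ppara, and in 2.71% of all 32851 windows. In Ppara its matches on the 2 strands overlap. The TGACGT core was in 1 window, that of Ppargc1a, and in 7.51% of all windows. The ERR element was in 0 of the 12 and in 4.72% of all windows. The 3 windows with a match are shown because they belong to the coactivator gene itself and to receptors it works with, at the top, middle and bottom of the levels, and capitals mark the matches (ACGTCA in Ppargc1a is TGACGT read on the other strand). They lie at chr5:51567676-51567975 (minus strand), chr19:6921759-6922058 (minus strand) and chr15:85735526-85735825 (plus strand).
Ppargc1a: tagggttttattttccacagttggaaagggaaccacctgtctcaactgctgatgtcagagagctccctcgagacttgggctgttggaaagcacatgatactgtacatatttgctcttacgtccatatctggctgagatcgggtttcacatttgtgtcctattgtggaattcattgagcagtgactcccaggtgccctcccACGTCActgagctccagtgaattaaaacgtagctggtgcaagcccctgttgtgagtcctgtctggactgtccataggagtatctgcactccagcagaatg
Esrra: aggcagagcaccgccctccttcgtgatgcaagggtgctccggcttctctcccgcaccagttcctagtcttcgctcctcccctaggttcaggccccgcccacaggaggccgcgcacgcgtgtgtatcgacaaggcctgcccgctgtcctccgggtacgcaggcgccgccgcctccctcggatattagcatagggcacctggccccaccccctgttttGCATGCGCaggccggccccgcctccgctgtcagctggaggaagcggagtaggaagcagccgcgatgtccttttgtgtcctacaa
Ppara: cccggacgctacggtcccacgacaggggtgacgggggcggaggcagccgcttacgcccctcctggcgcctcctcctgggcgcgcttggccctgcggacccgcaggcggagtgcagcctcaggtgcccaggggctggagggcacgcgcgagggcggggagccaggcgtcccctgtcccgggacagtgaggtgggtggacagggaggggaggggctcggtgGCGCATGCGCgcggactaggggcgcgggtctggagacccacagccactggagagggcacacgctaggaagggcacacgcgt
A match is a string of letters in these windows, and no binding was measured in this study.

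The main comparison asked whether the transcripts of these regulators differed between RNA pulled down from Fxr1 knockout and from wild type mice. None of the 7 that were above the filter on low counts passed an adjusted p of 0.05 by edgeR, DESeq2 or limma voom, where 0.0321% of all 12449 tested genes passed by edgeR (0.0161% higher and 0.0161% lower in knockout). Ppara fell below the filter on low counts; with no filter its log2 fold change was 0.12 (SE 0.59; edgeR adjusted p = 0.998). An unadjusted p under 0.05 was reached by 1 of the 7 in the edgeR fit, Ppargc1a, against 3.23% of all tested genes. Of the 7, 4 had log2 fold changes above 0 and 3 below, and the adjusted p was 0.998 for each by edgeR.

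Ppargc1a measured 424 and 387 CPM in knockout libraries, against 489 and 432 CPM in wild type libraries. Both knockout libraries lay below both wild type libraries, though knockout replicate 1 and wild type replicate 3 were close. The group means were 405 ± 25.9 CPM in knockout and 460 ± 40.8 CPM in wild type (SD, n = 2 each), a log2 fold change of −0.18 with a 95% interval of −0.33 to −0.03 (SE 0.07; edgeR adjusted p = 0.998). Its unadjusted p by edgeR was 0.0220 and ranked 174 of 12449. That p was 0.0223 by limma voom and 0.0554 by the DESeq2 Wald test, so it was not under 0.05 by each method. The log2 fold change kept its sign but was as small as −0.09 without wild type replicate 2 and as large as −0.26 without knockout replicate 1. The summed parvalbumin neuron markers given above were also lower in both knockout libraries. With each of the 12 markers counted alike, as the mean log2 deviation from the wild type mean, the groups overlapped. The values were −0.048 and −0.025 in knockout, against −0.027 and 0.027 in wild type. Of the 12, 5 had log2 fold changes above 0 and 7 below. The part of these markers in the difference of Ppargc1a was not tested.

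Ppargc1b, which encodes the related coactivator PGC-1beta, had a log2 fold change of the opposite sign, and neither gene passed the test. Its gene lies on chromosome 18 at 61298136 to 61400431, on the minus strand (mm10). It measured 76.2 and 77.6 CPM in knockout libraries, against 67.8 and 68.6 CPM in wild type libraries, so the groups did not overlap and the libraries of a genotype were close to each other. The log2 fold change of Ppargc1b was 0.17 with a 95% interval of −0.01 to 0.35 (SE 0.09; edgeR adjusted p = 0.998), and it lay between 0.16 and 0.19 with single libraries left out. Groups did not overlap for 2 of the 7 tested regulators, Ppargc1a and Ppargc1b, and for 30.2% of all tested genes, a similar share. Of these 2, 1 was higher, as were 14.8% of all tested genes, and 1 lower, as were 15.4%.

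A ratio within each library does not depend on how libraries are scaled, and was computed after the values above were seen. Ppargc1a counts were 5.56 and 4.99 times those of Ppargc1b in knockout libraries, against 7.22 and 6.29 times in wild type libraries. The knockout ratios were both below the wild type ratios, a difference of −0.36 on the log2 scale. Since Ppargc1a was lower and Ppargc1b higher in both knockout libraries, this order was fixed by the values above. The p below was fixed with it, so the ratio adds no support to those values. An exact two-sided permutation test gave p = 0.333, the smallest that 2 libraries against 2 can give.

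**Figure D2:**
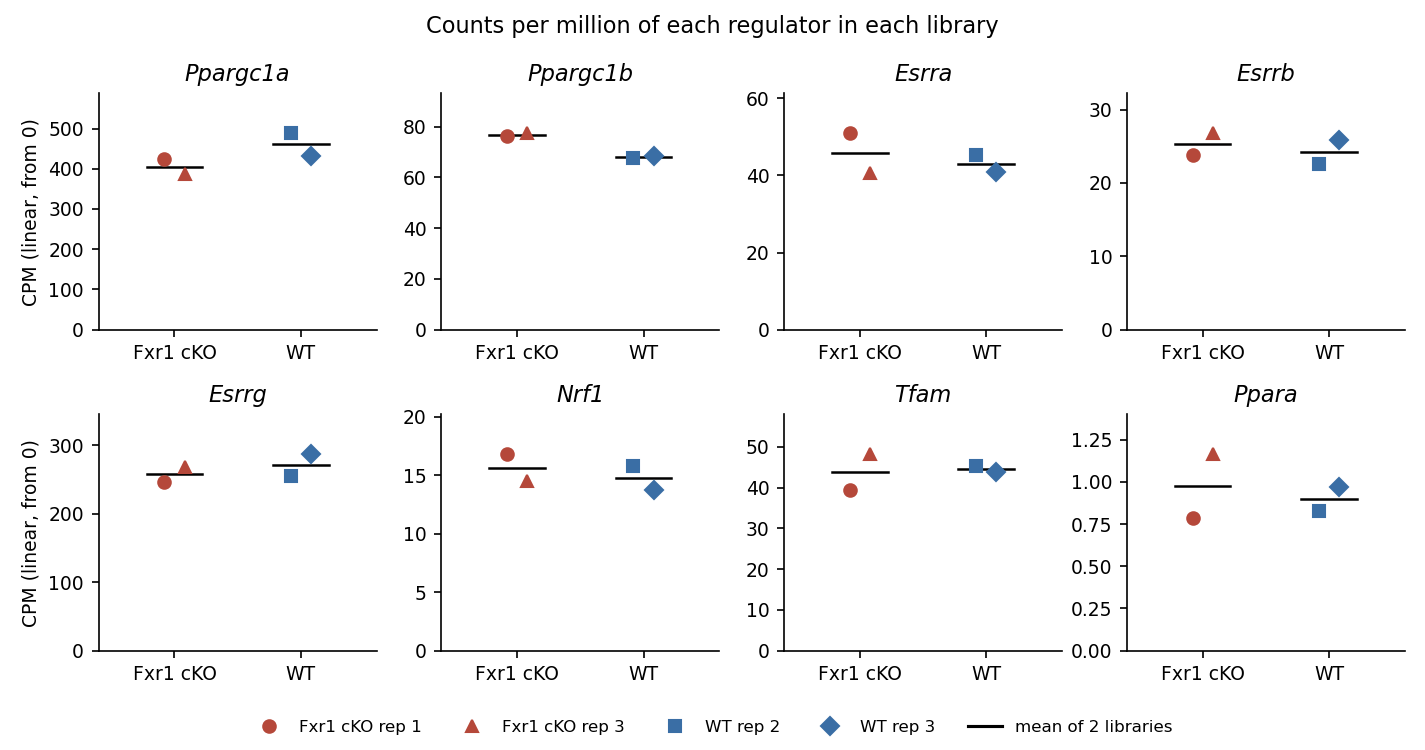
CPM of each regulator by genotype, Fxr1 knockout left and wild type right, 1 point per library with the mean of 2 libraries as a bar, on linear axes that start at 0. The groups are apart for Ppargc1a and Ppargc1b and overlap for the other 6 genes.

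The receptors gave no difference beyond the spread between libraries. Esrrg, whose product drives genes of oxidative metabolism in neurons and muscle, measured 247 and 268 CPM in knockout libraries, against 255 and 287 CPM in wild type libraries, with 1 knockout library between the wild type ones (log2 fold change −0.08, SE 0.08). Esrra, whose product acts broadly on mitochondrial genes in oxidative tissues, measured 51.0 and 40.7 CPM in knockout libraries, against 45.3 and 40.9 CPM in wild type libraries (log2 fold change 0.09, SE 0.11). Knockout replicate 1 was the highest of all and knockout replicate 3 the lowest. Esrrb, best known for its part in pluripotent stem cells and the inner ear, measured 23.8 and 26.8 CPM in knockout libraries, against 22.6 and 25.9 CPM in wild type libraries (log2 fold change 0.06, SE 0.13).

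The factors that act on mitochondrial genes also overlapped between genotypes. Nrf1, whose product binds promoters of nuclear genes for the respiratory chain, measured 16.8 and 14.5 CPM in knockout libraries, against 15.8 and 13.7 CPM in wild type libraries (log2 fold change 0.09, SE 0.16). Tfam measured 39.5 and 48.3 CPM in knockout libraries, against 45.4 and 44.0 CPM in wild type libraries (log2 fold change −0.02, SE 0.11). The knockout libraries of Tfam enclosed the wild type ones. Ppara stood at 0.787 and 1.17 CPM in knockout libraries, against 0.825 and 0.971 CPM in wild type libraries, within the counting error given above. The 95% intervals of the 7 tested genes reached from −0.33 (Ppargc1a) to 0.41 (Nrf1), and all 7 lay inside a fold of 1.5 in either direction.

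**Figure D3:**
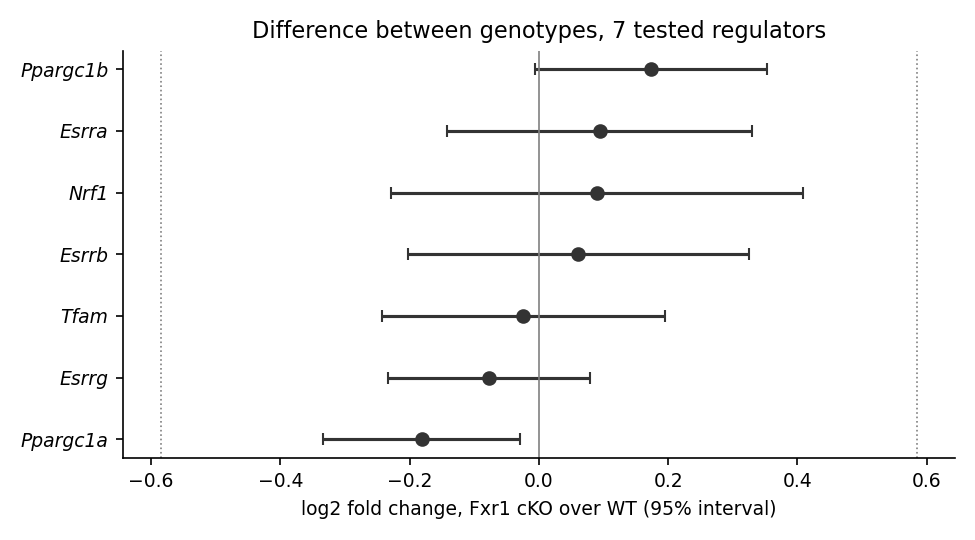
Log2 fold change of Fxr1 knockout over wild type for the 7 tested regulators, with 95% intervals from the edgeR fit; dotted lines mark a fold of 1.5. The interval of Ppargc1a lies below 0 before adjustment for the number of genes tested, and the other 6 include 0.

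**Figure D4:**
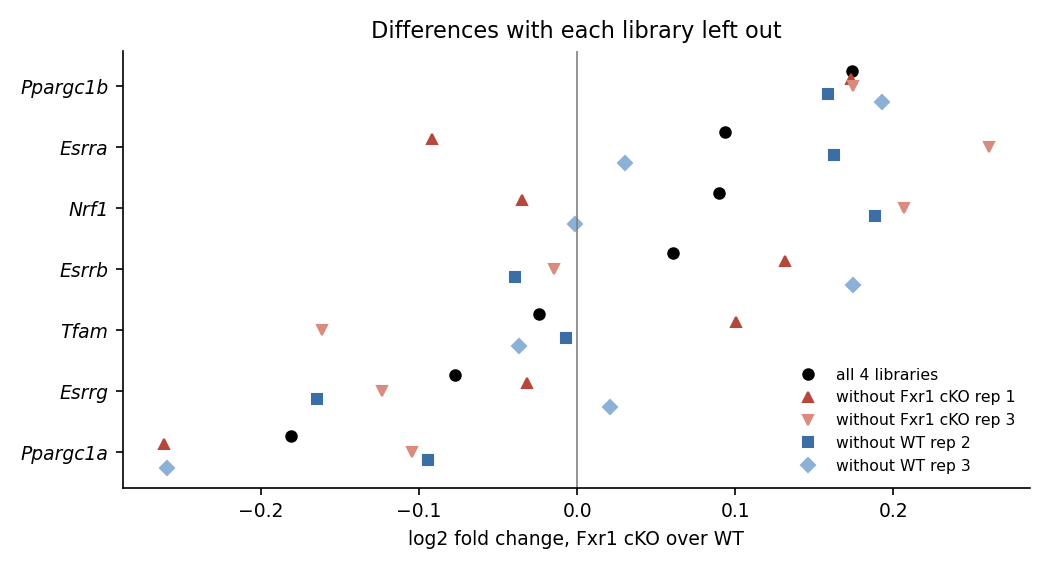
Log2 fold change of Fxr1 knockout over wild type for the 7 tested regulators with all 4 libraries (black) and with each library left out in turn. Ppargc1a stays below 0 and Ppargc1b above 0 in all 5 fits, and the other 5 genes have values on both sides of 0.

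Genes whose profile over the 4 libraries lay nearest to that of Ppargc1a were Sp9, Nrg2 and Mamld1. They stood at distances of 0.0218, 0.0233 and 0.0271 (Euclidean, on centred log2 CPM), among 8423 genes with at least 10 CPM. Sp9, an interneuron transcription factor gene, measured 32.1 and 29.6 CPM in knockout libraries, against 36.8 and 33.0 CPM in wild type libraries. For Esrrg the nearest were Myl12b, Lrrc4 and Maged1, at distances of 0.00699, 0.0146 and 0.0148. With 4 libraries such likeness is common: 133 genes lay within 0.1 of Ppargc1a and 593 within 0.1 of Esrrg.

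Other genes of the pathway were taken from 10 lists holding 134 measured genes, of which 129 could be tested. None passed over all genes by edgeR, DESeq2 or limma voom. An unadjusted p under 0.05 by edgeR was reached by 2, which is 1.55% of them, against 3.23% of all tested genes. The median log2 fold change of the 129 was −0.01, against −0.0015 over all tested genes. Their groups did not overlap for 38.0% (of 129, 17 higher and 32 lower in knockout), against 30.2% of all tested genes (14.8% higher and 15.4% lower). More of these pathway genes were thus lower than higher, where the shares over all tested genes were nearly even.

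Among 18 tested transcription factors and receptors that work with PGC-1 coactivators, 0 passed, with 9 above and 9 below 0. Ppard, the gene of PPARdelta, a widely expressed fatty acid receptor, had the smallest p. It measured 31.0 and 28.5 CPM in knockout libraries, against 21.8 and 21.1 CPM in wild type libraries, and the groups stood well apart. With a log2 fold change of 0.47 (SE 0.12), Ppard ranked 14 of 12449 by p and did not pass, the edgeR adjusted p being 0.611. That adjusted p was 0.0677 without knockout replicate 3 and at most 0.882 in the other edgeR fits, with 0.731 by limma voom and 0.999965 by DESeq2. Rxra, the gene of a partner that PPARs bind DNA with, came next with −0.24 (SE 0.13) on the log2 scale, which was −0.47 without knockout replicate 1 and −0.036 without knockout replicate 3. Creb1, the gene of a cAMP-responsive activator of Ppargc1a, had −0.09 (SE 0.10).

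Of 12 tested coactivators and corepressors 0 passed, 3 above and 9 below 0. The groups were apart for 1 that was higher and 4 that were lower in knockout, against 14.8% and 15.4% of all tested genes. The steroid receptor coactivator genes Ncoa2 (log2 fold change −0.14, SE 0.07) and Ncoa1 (−0.09, SE 0.07) had the smallest p. Ncor1, chosen after its values were seen, encodes a corepressor of nuclear receptors. It measured 245 and 426 CPM in knockout libraries, against 409 and 406 CPM in wild type libraries, so that knockout replicate 1 alone was low (log2 fold change −0.28, SE 0.36; edgeR adjusted p = 0.998). Without knockout replicate 3 it had a log2 fold change of −0.72 (adjusted p = 1.03e-11 by edgeR), and without knockout replicate 1 one of 0.05 (adjusted p = 0.998 by edgeR); the adjusted p was 0.856 or more in the other alternatives.

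Of 18 tested genes of energy and calcium sensing upstream of PGC-1alpha 0 passed, 5 above and 13 below 0, with a median log2 fold change of −0.06. The groups were apart for 1 that was higher and 7 that were lower in knockout, against 14.8% and 15.4% of all tested genes. Prkaa1, which encodes a catalytic subunit of the energy sensor AMPK, measured 63.9 and 56.7 CPM in knockout libraries, against 66.6 and 65.6 CPM in wild type libraries (log2 fold change −0.13, SE 0.09). Without knockout replicate 1 that log2 fold change was −0.23, and without knockout replicate 3 it was −0.034. Sirt3, which encodes a mitochondrial deacetylase, stood at −0.15 (SE 0.11) and the AMPK subunit gene Prkab2 at −0.14 (SE 0.11) on the log2 scale. The value of Prkab2 was −0.0085 with wild type replicate 2 left out and −0.25 with wild type replicate 3 left out.

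Of 15 genes of mitochondrial DNA transcription and replication 0 passed, 11 above and 4 below 0. The groups were apart for 4 that were higher and 2 that were lower in knockout, against 14.8% and 15.4% of all tested genes. The median log2 fold change of the 15 was 0.08, but single libraries moved it. It came to −0.042 on leaving out wild type replicate 2 and to 0.23 on leaving out wild type replicate 3. Those with the smallest p were Mterfd2 (0.22, SE 0.17), a termination factor family gene, Polg2 (−0.70, SE 0.55), the accessory subunit gene of the mitochondrial DNA polymerase, and Peo1 (0.20, SE 0.18), which encodes the helicase Twinkle. Polg2 stood at 0.885 and 0.583 CPM in knockout libraries, against 1.03 and 1.36 CPM in wild type libraries, too few counts for a narrow error.

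Genes that act further downstream, in the respiratory chain and the citrate cycle, did not pass either. Of 11 genes of cytochrome c and its oxidase, described as NRF1 targets, 0 passed, and 8 were above and 3 below 0. Cox4i1 (log2 fold change −0.10, SE 0.08), Cox8a (0.11, SE 0.10) and Cox6b1 (0.11, SE 0.11) had the smallest p. Of 18 citrate cycle and pyruvate entry genes, many described as ERR targets, 0 passed, with 8 above and 10 below 0. The groups were apart for 2 that were higher and 8 that were lower in knockout, against 14.8% and 15.4% of all tested genes. Suclg1 (−0.12, SE 0.08), Cs (−0.10, SE 0.07) and Sucla2 (−0.09, SE 0.07), all enzymes of the cycle, had the smallest p.

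The transcripts described in mice as dependent on PGC-1alpha in parvalbumin neurons were compared: all 4 were tested and 0 passed. Pvalb, the calcium buffer, measured 248 and 241 CPM in knockout libraries, against 262 and 264 CPM in wild type libraries, both knockout libraries being lower (log2 fold change −0.10, SE 0.07). Nefh, a neurofilament gene, measured 1672 and 1457 CPM in knockout libraries, against 1459 and 1399 CPM in wild type libraries (0.13, SE 0.07). Knockout replicate 1 stood highest, and the log2 fold change of Nefh was 0.016 without it and 0.24 without knockout replicate 3. Cplx1, a complexin of synaptic release, measured 3275 and 2951 CPM in knockout libraries, against 3291 and 2775 CPM in wild type libraries (0.04, SE 0.08). Syt2, the calcium sensor of fast release, measured 1403 and 1392 CPM in knockout libraries, against 1402 and 1443 CPM in wild type libraries (−0.02, SE 0.06). Groups overlapped for Nefh, Cplx1 and Syt2.

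Of 13 tested genes of fatty acid oxidation, many described as PPARalpha targets, 0 passed, 8 above and 5 below 0. Cpt1c, a brain form of carnitine palmitoyltransferase, measured 46.8 and 43.4 CPM in knockout libraries, against 52.9 and 52.7 CPM in wild type libraries (log2 fold change −0.23 with SE 0.10; edgeR adjusted p = 0.998). Acadl, an acyl-CoA dehydrogenase gene, came to −0.24 (SE 0.12) on the log2 scale and Slc25a20, the mitochondrial carnitine carrier gene, to 0.53 (SE 0.26) at 3.61 to 6.22 CPM. Of 10 antioxidant and uncoupling genes 0 passed, with log2 fold changes from −0.10 to 0.06. Those with the smallest p were Txn2 (−0.06, SE 0.10), Slc25a14 (−0.09, SE 0.16) and Gpx1 (0.06, SE 0.13). Of 10 genes of mitochondrial fusion and fission 0 passed, and Smcr7l (listed as Mief1; 0.19, SE 0.11), Fis1 (−0.15, SE 0.13) and Smcr7 (listed as Mief2; 0.09, SE 0.16) had the smallest p.

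**Figure D5:**
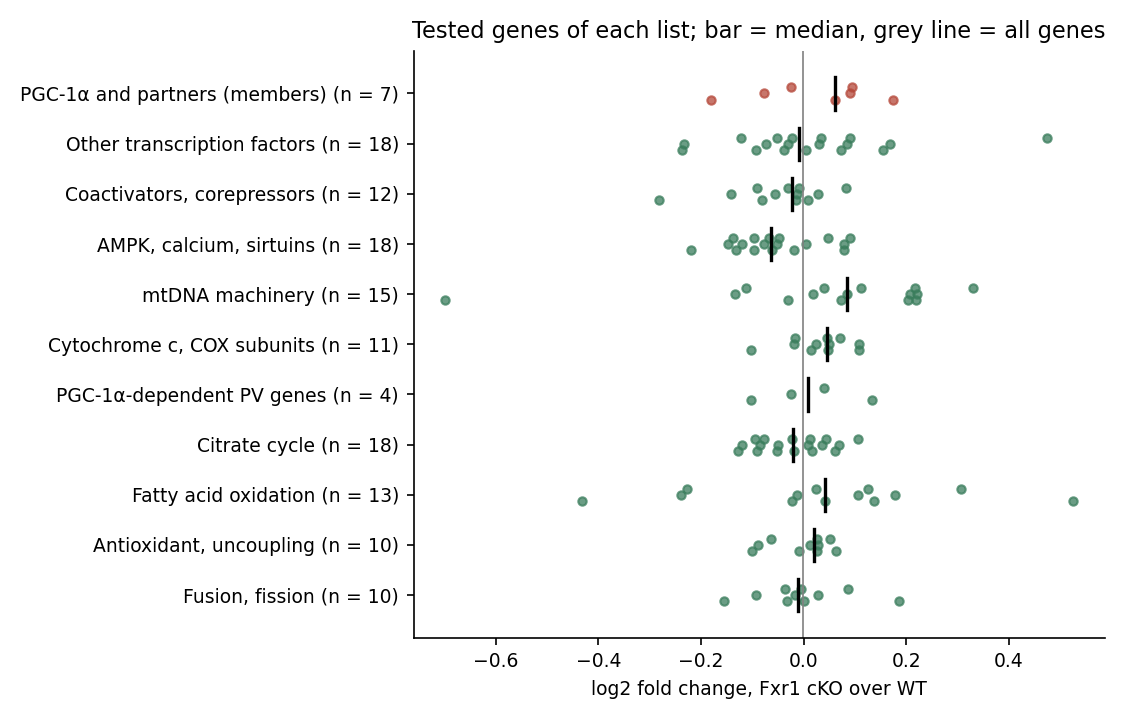
Log2 fold change of Fxr1 knockout over wild type for each tested gene of the 8 regulators (red) and of the 10 pathway lists (green), with list medians as black bars and the median of all tested genes as a grey line. List medians lie between −0.06 and 0.08, and Ppard at 0.47 stands apart in the list of other transcription factors.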

How the data were processed

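RNA from tagged ribosomes went into stranded total-RNA libraries (SMARTer kit), per the labels' protocols. STAR and mm10 are named in the submitters' processing notes; the sources used here name no counter, annotation or strand setting. What the authors deposited are raw, unnormalized counts per gene symbol. Of 6 columns, 2 were left out, since both bear the title of wild type replicate 1; replicates were numbered in accession order. No pair of libraries agreed within sampling noise (chi-square per degree of freedom 3.02 to 6.35).

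Knockout was tested against wild type with edgeR 4.0.16 in R 4.3.3 (TMM scaling, filterByExpr, robust quasi-likelihood, 12449 genes, Benjamini-Hochberg adjustment at 0.05); the script was tested on simulated data. CPM use column totals, and lengths are union exon lengths in GENCODE M21. The 8 genes and the lists were chosen with earlier results of these data known. Named are Fxr1, the 8 genes, the 3 members of each list with the smallest p (1 of these is not reported here), all genes described as dependent on PGC-1alpha, abundant markers and the nearest profiles. Older symbols were matched through RefSeq. Alternatives were DESeq2 1.42.0, limma 3.58.1 voom, DESeq2 size factors or library totals in edgeR, no filter on low counts or at least 5 CPM in 3 libraries, non-robust fits, no ribosomal RNA and small-RNA genes, and each library left out.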

Additional observations from a re-analysis of the deposited data

How the results depend on the processing

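None of the regulators passed under any of the 12 alternatives, and Ppargc1a and Ppargc1b kept their direction in all 12 (log2 fold changes −0.26 to −0.09 and 0.16 to 0.19). The number of all genes past the threshold, 4 by edgeR, was 2 by DESeq2, 1 with library totals, 13 with no filter on low counts and 9 to 48 with single libraries left out. Of the pathway genes, 0 to 1 passed with single libraries left out, the 1 being Ncor1 without knockout replicate 3. With single libraries left out the direction turned for some genes, whose log2 fold changes ranged from −0.092 to 0.26 for Esrra, −0.039 to 0.17 for Esrrb, −0.16 to 0.021 for Esrrg, −0.035 to 0.21 for Nrf1 and −0.16 to 0.10 for Tfam. They ranged from −0.076 to 0.27 for Cox6b1, −0.069 to 0.16 for Cplx1, −0.051 to 0.0063 for Syt2, −0.26 to 0.063 for Slc25a14 and −0.066 to 0.18 for Gpx1. The cause was not tested. Of 31 genes that the naming rule took from the lists, the last 5 named turned, and another 18 kept their direction but moved by over 1.5 times with a single library left out. Where only 1 library of a genotype was left, it was assumed to vary like those of the other genotype. The order of levels per kilobase was the same with TMM-scaled sizes and with the longest transcript, where Esrra stood apart from Tfam. No paired analysis was possible because replicates were numbered by accession, which pairs no samples. Settings foreseen for normalized units had nothing to act on. Ppara, with 38 counts in all 4 libraries, had log2 fold changes of 0.0043 to 0.36 in the 3 fits without a single library where it was above the filter on low counts.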
